A study of Arabidopsis thaliana with 18 samples.

Results

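Cytochrome P450s are heme enzymes that take electrons from a reductase and insert oxygen into small molecules. In plants they build and break down hormones, wall polymers and defence compounds, and in roots several of them make tryptophan-derived and phenylpropanoid products that respond to microbes. Their names give the family by a number and the subfamily by a letter. The genes described here are those read by a probe set of a single gene whose symbol in the array annotation has the form CYP, digits, capital letters, digits, with CYP71B5 left out. There were 21 such genes of 13355 with a single-gene probe set, each read by 1 probe set. They are not the whole family, since 225 genes of the RefSeq gene table carry a symbol of that form, and the others are not analysed here. Of the 21 genes, 17 belonged to the subfamily CYP71B and the other 4 were CYP51G2, CYP78A9, CYP79A2 and CYP84A4.

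Roots of 19-day-old Arabidopsis thaliana seedlings were profiled on Affymetrix ATH1 arrays in 6 groups of 3 arrays. The groups were oxMYB72 with WCS417, oxMYB72 untreated, myb72-2 with WCS417, myb72-2 untreated, Col-0 with WCS417 and Col-0 untreated. Col-0 is the wild type, myb72-2 is a mutant of the root transcription factor MYB72 in Col-0, and oxMYB72 is the myb72-2 mutant with a tagged copy of the gene, 35S:FLAG-MYB72, driven by a viral promoter that is active in most tissues. All plants grew on agar with 50 μM iron, and colonized roots received the rhizobacterium Pseudomonas WCS417 at 17 days of age, 2 days before harvest. The labels do not say how many transgenic lines oxMYB72 stands for, nor whether replicates came from separate plant batches, so p-values measure only the spread between these arrays. No probe set was named MYB72, and its level therefore gave no check of the genotypes.

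Values are RMA expression values on the log2 scale, between 2.42 and 14.63 over all probe sets, and a gene was called at a Benjamini-Hochberg adjusted p under 0.05 in limma over 22746 probe sets. Differences are given ± standard error (SE) and group means ± SD (n = 3). With 3 arrays per group, groups that do not differ are without overlap in 10% of cases. Replicate arrays correlated between 0.9913 and 0.9977 within groups. The actin signal at the 3′ end exceeded that at the 5′ end, a measure of RNA intactness, by 1.1 to 1.48 log2 units, with group means of 1.33 in colonized and 1.19 in untreated oxMYB72, 1.33 in colonized and 1.27 in untreated myb72-2, and 1.3 in colonized and 1.21 in untreated Col-0. These means were larger with WCS417 in each genotype, although the arrays overlapped in myb72-2 and Col-0. For GAPDH the same difference averaged -0.05 in colonized and -0.20 in untreated oxMYB72, -0.08 in colonized and -0.11 in untreated myb72-2, and -0.03 in colonized and -0.19 in untreated Col-0, with overlap in myb72-2. Their part in the results was not tested. In bulk roots, fewer cells of a type and less RNA per cell cannot be told apart.

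Of the 21 genes, 7 were called in at least 1 of 12 comparisons, and 14 in none. Of all probe sets 34.8% were called in at least 1. The 7 were CYP71B6, CYP71B26, CYP71B28, CYP71B29, CYP71B34, CYP71B37 and CYP51G2. All 11 members with a mean in the dimmest 30% of probe sets (below 4.35) were without a call. Their values lay between 2.70 and 4.37 on every array, a range in which RMA compresses differences, so a change in them may not have been detectable. Of the 10 members above that limit 7 were called in some comparison, beside 45.7% of the probe sets above it. Those never called were CYP71B23, CYP78A9 and CYP84A4.

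**Figure D1:**
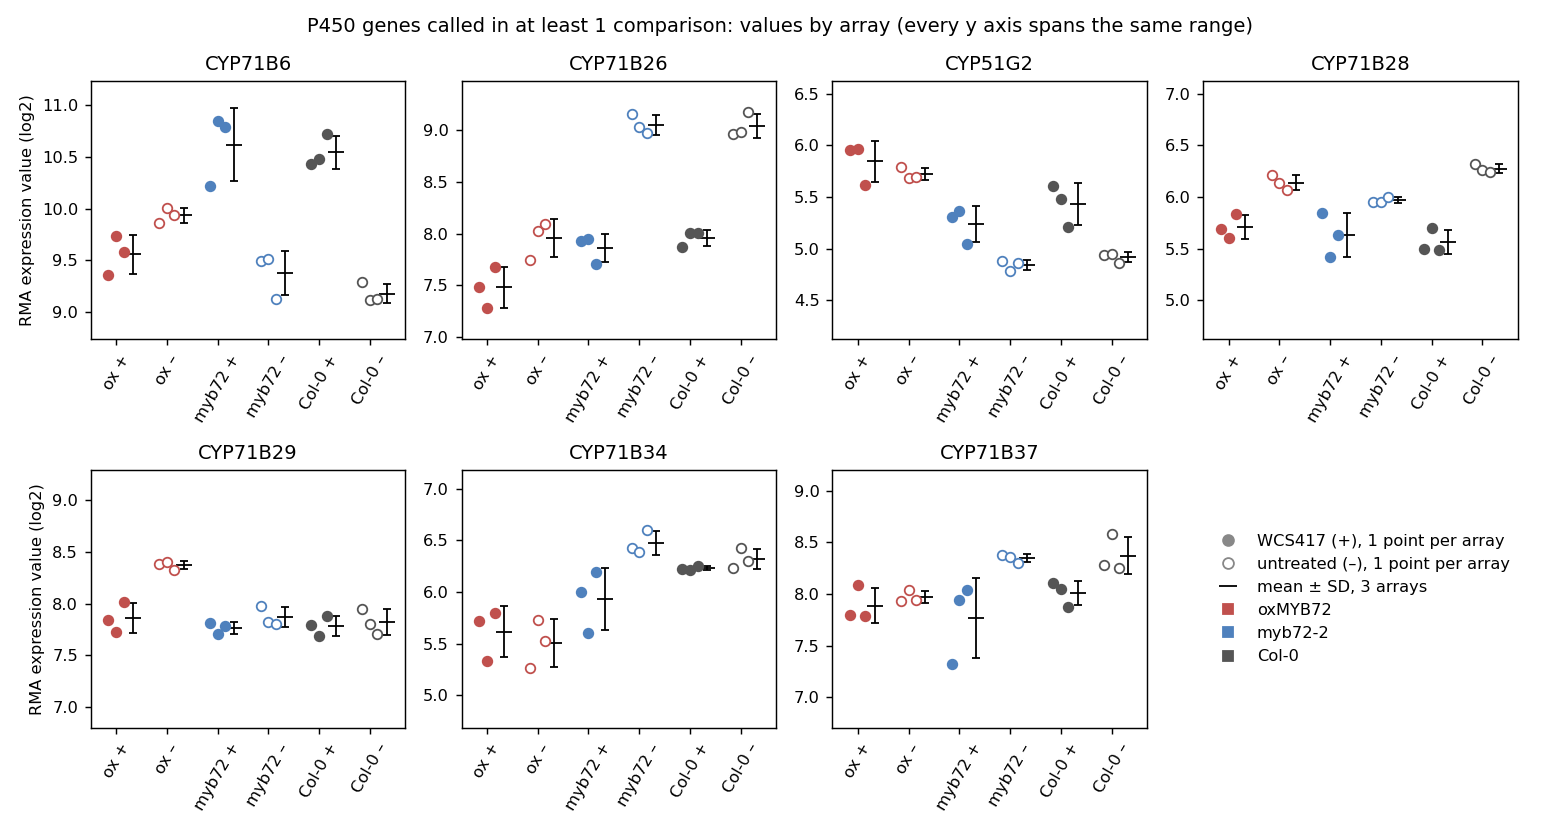
RMA expression value (log2, y axis) of the 7 genes called in at least 1 comparison, by group (x axis; ox is oxMYB72, myb72 is myb72-2, + is WCS417, – is untreated). Points are arrays and bars are mean ± SD of 3 arrays. CYP71B6 is at 9.35 to 9.74 in colonized oxMYB72, below colonized myb72-2 and Col-0 (10.22 to 10.85), whereas CYP71B26 is lower with WCS417 in all 3 genotypes.

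The comparison of colonized with untreated roots asks which P450 genes respond to the bacterium. In oxMYB72, 0 members rose with WCS417 and 3 fell, which is 14.3% of 21, against 19.3% of all probe sets called in that comparison (10.2% higher and 9.09% lower). In myb72-2, 2 rose and 4 fell (28.6%, against 21.4% of all probe sets, 8.52% higher and 12.9% lower), and 3 were called without myb72-2 WCS417 replicate 2. In Col-0, 2 rose and 2 fell (19%, against 15.3% of all probe sets, 6.38% higher and 8.96% lower). All calls lay in the 10 members above the dim limit, where 3 of 10 were called in oxMYB72, 6 of 10 in myb72-2 and 4 of 10 in Col-0, beside 26.3%, 28.3% and 20.5% of the probe sets above that limit. With so few members these counts are a description and were not tested against the background. The median difference over the 21 genes was 0.03 in oxMYB72, 0.04 in myb72-2 and 0.07 in Col-0, beside 0.03, -0.002 and 0.001 over all probe sets.

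CYP71B6 rose most among the 21 genes in both myb72-2 and Col-0, and did not rise in oxMYB72. The enzyme converts indole-3-acetonitrile, an intermediate of tryptophan-derived defence compounds, to indole-3-carbaldehyde and indole-3-carboxylic acid. In oxMYB72 it had values of 9.35, 9.74 and 9.58 with WCS417, against 9.87, 10.01 and 9.94 untreated. In myb72-2 it had 10.22, 10.85 and 10.79 with WCS417, against 9.49, 9.52 and 9.13 untreated. In Col-0 it had 10.43, 10.48 and 10.72 with WCS417, against 9.29, 9.12 and 9.13 untreated. Every colonized array lay above every untreated one in myb72-2 and Col-0, and every colonized array lay below every untreated one in oxMYB72.

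The difference in oxMYB72 was -0.38 ± 0.15 and was not called (limma adjusted p = 0.0809), but it was called with limma fitted to the 6 oxMYB72 arrays alone (adjusted p = 0.0468). The rise was 1.24 ± 0.15 in myb72-2 (2.37-fold, limma adjusted p = 2.51e-06) and 1.36 ± 0.15 in Col-0 (2.58-fold, limma adjusted p = 7.87e-07). The response of CYP71B6 in oxMYB72 was lower than that in myb72-2 by -1.62 ± 0.21 (limma adjusted p = 3.7e-05) and lower than that in Col-0 by -1.74 ± 0.21 (limma adjusted p = 1.64e-05). These tests share the oxMYB72 arrays, and these 4 calls held without each array in turn. Between myb72-2 and Col-0 the responses differed by -0.12 ± 0.21 (limma adjusted p = 1).

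CYP71B26 was lower with WCS417 in all 3 genotypes. It lies in a tandem run of CYP71B genes on chromosome 3, and its substrate is not stated in the sources used here. In oxMYB72 it had 7.49, 7.28 and 7.68 with WCS417, against 7.75, 8.03 and 8.09 untreated. In myb72-2 it had 7.93, 7.95 and 7.71 with WCS417, against 9.16, 9.03 and 8.97 untreated. In Col-0 it had between 7.87 and 8.01 with WCS417, against 8.97, 8.98 and 9.18 untreated. In each genotype every colonized array lay below every untreated one, by the narrowest margin in oxMYB72. The gene fell by 0.47 ± 0.12 in oxMYB72 (limma adjusted p = 0.00654, lost without oxMYB72 WCS417 replicate 2), by 1.19 ± 0.12 in myb72-2 (limma adjusted p = 2.01e-07) and by 1.08 ± 0.12 in Col-0 (limma adjusted p = 8.39e-07). The response in oxMYB72 was smaller in size than in myb72-2, by 0.72 ± 0.17 (limma adjusted p = 0.018). The call of this difference was lost without myb72-2 control replicate 1, oxMYB72 control replicate 1 or oxMYB72 WCS417 replicate 3. Against Col-0 the difference of responses was 0.61 ± 0.17 and was not called (limma adjusted p = 0.0735). It was called under robust moderation with a trend (limma adjusted p = 0.0407) and without oxMYB72 WCS417 replicate 2 (limma adjusted p = 0.033).

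CYP71B28 also fell in each genotype. It adjoins CYP71B29 on chromosome 1, with no gene between them in the gene table. In oxMYB72 it had 5.69, 5.60 and 5.83 with WCS417, against 6.21, 6.13 and 6.07 untreated. In myb72-2 it had 5.84, 5.42 and 5.63 with WCS417, against 5.95, 5.95 and 6.00 untreated. In Col-0 it had 5.50, 5.70 and 5.49 with WCS417, against 6.32, 6.26 and 6.24 untreated. The colonized and untreated arrays did not overlap in any of the 3 genotypes, but in myb72-2 the nearest arrays were close. CYP71B28 fell by 0.43 ± 0.11 in oxMYB72 (limma adjusted p = 0.00591), by 0.34 ± 0.11 in myb72-2 (limma adjusted p = 0.0268) and by 0.71 ± 0.11 in Col-0 (limma adjusted p = 5.01e-05). The call in myb72-2 was lost without any of the 3 untreated myb72-2 arrays or without myb72-2 WCS417 replicate 2, and with limma fitted to the 6 myb72-2 arrays alone. The differences of responses were -0.10 ± 0.15 for oxMYB72 minus myb72-2, 0.28 ± 0.15 for oxMYB72 minus Col-0 and 0.37 ± 0.15 for myb72-2 minus Col-0, none of them called by limma.

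Its neighbour CYP71B29 was called in oxMYB72. There it had 7.85, 7.73 and 8.02 with WCS417, against 8.39, 8.40 and 8.32 untreated, and fell by 0.51 ± 0.10 (limma adjusted p = 0.000919). The colonized arrays of oxMYB72 lay at the level that the gene had in the other genotypes. In myb72-2 the difference was -0.10 ± 0.10 and in Col-0 it was -0.03 ± 0.10, neither of them called. The response in oxMYB72 minus that in myb72-2 was -0.41 ± 0.14 (limma adjusted p = 0.174), and minus that in Col-0 it was -0.48 ± 0.14 (limma adjusted p = 0.117), so a difference between genotypes was not shown.

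CYP51G2 rose in myb72-2 and Col-0. It is named for CYP51, the sterol demethylase family, and RefSeq lists it as a transcribed pseudogene. In oxMYB72 it had 5.96, 5.96 and 5.62 with WCS417, against 5.79, 5.69 and 5.69 untreated. In myb72-2 it had 5.30, 5.36 and 5.04 with WCS417, against 4.88, 4.78 and 4.86 untreated. In Col-0 it had 5.60, 5.48 and 5.21 with WCS417, against 4.94, 4.95 and 4.86 untreated. Colonized and untreated arrays overlapped in oxMYB72 and not in the other genotypes. CYP51G2 rose by 0.40 ± 0.12 in myb72-2 (limma adjusted p = 0.0185) and by 0.51 ± 0.12 in Col-0 (limma adjusted p = 0.00383), and in oxMYB72 the difference was 0.12 ± 0.12 (limma adjusted p = 0.542). The call in myb72-2 was lost without control replicate 2, WCS417 replicate 1 or WCS417 replicate 2 of myb72-2. The response in oxMYB72 minus that in Col-0 was -0.39 ± 0.17 (limma adjusted p = 0.438), so a difference between genotypes was not shown.

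The other falls called in myb72-2 were in CYP71B34 and CYP71B37, members of the chromosome 3 run. CYP71B34 had 6.01, 5.60 and 6.19 in colonized myb72-2, against 6.43, 6.39 and 6.60 in untreated myb72-2, and fell by 0.54 ± 0.14 (limma adjusted p = 0.00985). CYP71B37 had 7.33, 7.94 and 8.04 with WCS417, against 8.38, 8.36 and 8.30 untreated, and fell by 0.58 ± 0.14 (limma adjusted p = 0.00632). Both rested on single arrays. The call of CYP71B34 was lost without myb72-2 control replicate 3 or myb72-2 WCS417 replicate 2, and that of CYP71B37 without myb72-2 WCS417 replicate 1, where its fall became -0.35. In Col-0 CYP71B37 had 8.10, 8.05 and 7.88 with WCS417, against 8.28, 8.58 and 8.25 untreated, a difference of -0.36 ± 0.14 that was not called (limma adjusted p = 0.106, and 0.0482 with the 6 Col-0 arrays alone).

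**Figure D2:**
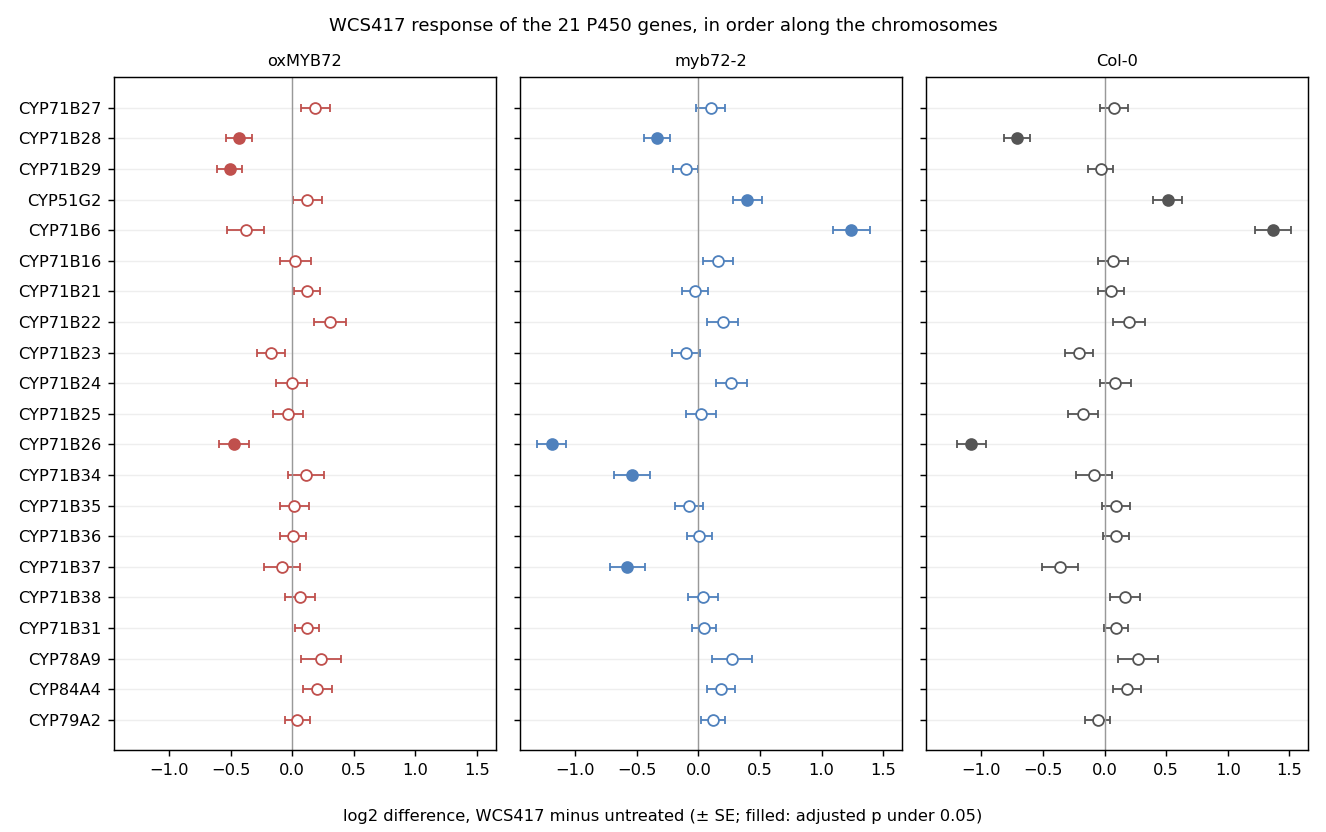
Log2 difference of colonized minus untreated roots (x axis, ± SE) for all 21 P450 genes (y axis, in order along the chromosomes) in oxMYB72, myb72-2 and Col-0. Filled points have a limma adjusted p under 0.05. CYP71B6 lies at 1.24 in myb72-2 and 1.36 in Col-0 but at -0.38 in oxMYB72.

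Across the 21 genes the responses of myb72-2 and Col-0 correlated at r = 0.927. Those of oxMYB72 correlated with Col-0 at 0.304 and with myb72-2 at 0.248. Without CYP71B6, over 20 genes, these became 0.760 and 0.627, and that of myb72-2 with Col-0 became 0.878. CYP71B6 was left out after its values were seen, so the higher r with oxMYB72 follows from that choice. The points are genes read on the same arrays and not replicates, and most of them are dim probe sets with small differences, so the values describe this set only.

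The tandem run on chromosome 3 spans 24 genes of the gene table, from CYP71B16 (AT3G26150) to CYP71B37 (AT3G26330), of which 18 carry a CYP71B symbol and 11 are members here. Of these 11, CYP71B26, CYP71B34 and CYP71B37 were called in some comparison, beside 34.8% of all probe sets. CYP71B26 and CYP71B34 are separated by 1 gene, and CYP71B35 and CYP71B36, which lie between CYP71B34 and CYP71B37, were never called. With WCS417 CYP71B35 differed by 0.02, -0.07 and 0.09 in oxMYB72, myb72-2 and Col-0, and CYP71B36 by 0.01, 0.01 and 0.09. CYP71B23, another member of the run above the dim limit, differed by -0.17 ± 0.11, -0.10 ± 0.11 and -0.21 ± 0.11 in the same order of genotypes. All 21 probe sets have the plain suffix of sets designed for a single transcript. Whether transcripts of close copies in the run bind each other's probes was not tested.

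Of the members with listed roles outside the CYP71B subfamily, CYP51G2 was called as given above, and CYP84A4, CYP78A9 and CYP79A2 were called in no comparison. CYP84A4, an enzyme of arabidopyrone synthesis from phenylpropanoid precursors, had differences with WCS417 of 0.20 ± 0.12 in oxMYB72, 0.18 ± 0.12 in myb72-2 and 0.18 ± 0.12 in Col-0 (limma adjusted p = 0.252, 0.294 and 0.353). CYP78A9, known for its effect on fruit and seed growth, had 0.24 ± 0.16, 0.27 ± 0.16 and 0.27 ± 0.16 in the same order (limma adjusted p = 0.37, 0.26 and 0.326). CYP79A2, which converts phenylalanine to its aldoxime on the way to benzylglucosinolate, had 0.04 ± 0.10, 0.12 ± 0.10 and -0.06 ± 0.10 and was among the dim members. CYP71B31, an enzyme of linalool metabolism in flowers and a CYP71B member with a listed role, was dim too, with 0.12 ± 0.10, 0.04 ± 0.10 and 0.09 ± 0.10. Among the dim members CYP71B22 had the lowest adjusted p, with a WCS417 difference of 0.31 ± 0.13 in oxMYB72 (limma adjusted p = 0.107). CYP71B24 came next, at -0.36 ± 0.13 between colonized oxMYB72 and colonized myb72-2 (limma adjusted p = 0.118) and with a WCS417 difference of 0.27 ± 0.13 in myb72-2 (limma adjusted p = 0.139). Without myb72-2 WCS417 replicate 3 both were called (limma adjusted p = 0.0151 and 0.0188). Over the 9 comparisons of groups, the 14 genes without a call differed by between -0.36 and 0.31.

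Green tissue markers were set beside CYP71B26 and CYP71B28, the members called lower with WCS417 in all 3 genotypes. Of 26 such genes 5 were read by a named single-gene probe set (LHCB4.1, LHCB4.2, LHCB4.3, RCA and NdhS). LHCB4.3 lay near the dim limit, with group means of 4.24 to 4.81, and the other 4 above it. All 5 were called lower with WCS417 in oxMYB72 and 4 of 5 in myb72-2 and in Col-0. Of all probe sets 9.09%, 12.9% and 8.96% were called lower in the same order of genotypes. LHCB4.3 differed by -0.23 ± 0.17 in myb72-2 and -0.22 ± 0.17 in Col-0, neither of them called. The mean of the 5 markers per array lay at 5.78 to 5.98 in colonized and 6.47 to 6.71 in untreated oxMYB72. It lay at 5.74 to 6.09 in colonized and 6.85 to 6.91 in untreated myb72-2, and at 5.91 to 6.04 in colonized and 6.86 to 6.98 in untreated Col-0. The untreated oxMYB72 arrays lay below those of the other genotypes in this mean as they did in CYP71B26. In CYP71B28 they did not. It averaged 6.14 ± 0.07 in untreated oxMYB72, against 5.97 ± 0.03 in untreated myb72-2 and 6.27 ± 0.04 in untreated Col-0. Of 20 root genes 3 were read (EXPA7, EXPA18 and XTH26, wall-loosening and wall-remodelling proteins of roots), of which XTH26 was dim in untreated roots. With WCS417, 3 of these were called higher in oxMYB72 and myb72-2 and 2 in Col-0. Of all probe sets 10.2%, 8.52% and 6.38% were called higher in that order. EXPA7 differed by 0.40 ± 0.16 in Col-0 and was not called (limma adjusted p = 0.0925). In oxMYB72 and myb72-2 EXPA7 differed by 0.52 ± 0.16 and 0.51 ± 0.16. In oxMYB72, myb72-2 and Col-0 EXPA18 differed by 0.73, 0.79 and 0.71, and XTH26 by 2.29, 2.50 and 2.54. XTH26 thus weighed most in the rise of their mean. The mean of the 3 root genes lay at 7.63 to 7.75 in colonized and 6.33 to 6.69 in untreated oxMYB72. It lay at 7.74 to 8.27 and 6.63 to 6.79 in myb72-2, and at 7.96 to 8.36 and 6.84 to 7.06 in Col-0. The part of green tissue or of root cell types in the P450 results was not tested.

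**Figure D3:**
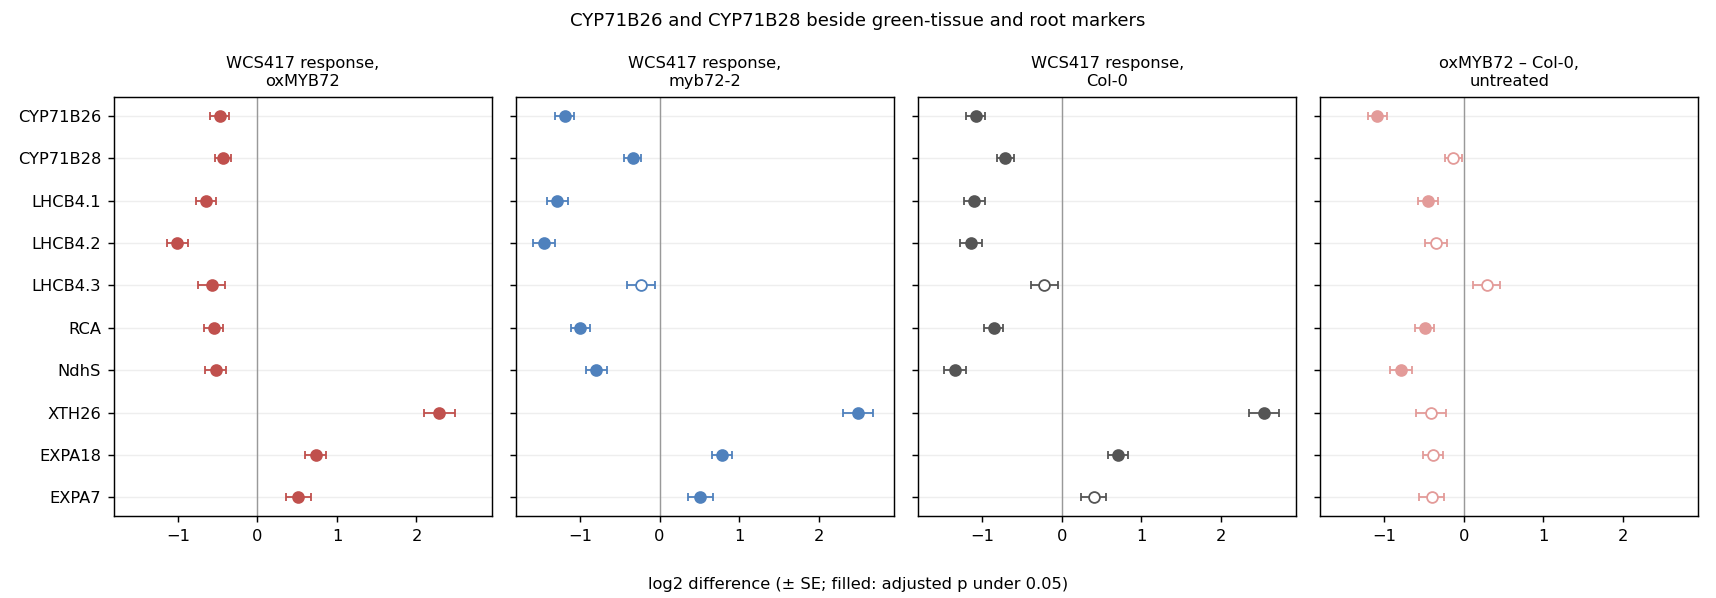
Log2 differences (x axis, ± SE) of CYP71B26 and CYP71B28, 5 green-tissue markers (LHCB4.1 to NdhS) and 3 root markers (XTH26 to EXPA7) for WCS417 minus untreated in oxMYB72, myb72-2 and Col-0, and for oxMYB72 minus Col-0 in untreated roots. Filled points have a limma adjusted p under 0.05. CYP71B26 and CYP71B28 both lie on the side of the green-tissue markers in the 3 responses. In untreated roots LHCB4.3 lies at 0.29, on the side opposite to the other green-tissue markers.

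The comparison of the mutant with the wild type asks whether the levels of these 21 genes depend on MYB72. CYP71B5 was left out of the set, so the counts do not speak for it. In untreated roots limma called 0 of the 21 genes between myb72-2 and Col-0, against 0.0396% of all probe sets (0.0044% higher and 0.0352% lower), and 1 gene had an unadjusted p under 0.05. That gene was CYP71B28, at 5.95, 5.95 and 6.00 in myb72-2, against 6.32, 6.26 and 6.24 in Col-0, a difference of -0.31 ± 0.11 (limma adjusted p = 0.956). In colonized roots limma again called 0 of 21, against 0.127% of all probe sets (0.0176% higher and 0.11% lower), and 0 had an unadjusted p under 0.05. CYP71B6 averaged 10.62 ± 0.35 in colonized myb72-2 and 10.54 ± 0.16 in colonized Col-0, a difference of 0.08 ± 0.15. CYP71B26 averaged 7.86 ± 0.14 in colonized myb72-2 and 7.96 ± 0.08 in colonized Col-0, a difference of -0.10 ± 0.12. For the difference between the WCS417 responses of myb72-2 and Col-0 limma called 0 of 21 as well, against 0.0176% of all probe sets (0% higher and 0.0176% lower), and 2 genes had an unadjusted p under 0.05. These were CYP71B28 (0.37 ± 0.15) and CYP71B34 (-0.45 ± 0.20), both at a limma adjusted p of 1. Few probe sets were called in these comparisons at all, and a count of 0 among 21 is near that background.

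The comparison of oxMYB72 with its background and with the wild type asks what the transgene line changes. Without bacteria 3 members were higher and 2 lower in oxMYB72 than in myb72-2 (23.8% of 21, against 6.81% of all probe sets called, 3.53% higher and 3.27% lower). The same split, 3 higher and 2 lower, was found against Col-0 (23.8%, against 7.41% of all probe sets, 3.83% higher and 3.58% lower). In each comparison the higher genes were CYP51G2, CYP71B6 and CYP71B29, and the lower ones CYP71B26 and CYP71B34. The comparisons share the oxMYB72 arrays. Among the 15922 probe sets above the dim limit, the calls came to 9.37% against myb72-2 and 10.2% against Col-0, beside 5 of 10 members above that limit.

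CYP51G2 and CYP71B29 were higher in untreated oxMYB72. The CYP51G2 values of 5.79, 5.69 and 5.69 in untreated oxMYB72 lay above all 12 arrays of myb72-2 and Col-0, colonized ones included. CYP51G2 was higher by 0.88 ± 0.12 than in untreated myb72-2 (1.84-fold, limma adjusted p = 2.31e-05) and by 0.80 ± 0.12 than in untreated Col-0 (limma adjusted p = 6.55e-05). CYP71B29, at 8.39, 8.40 and 8.32 in untreated oxMYB72, had 7.98, 7.83 and 7.80 in untreated myb72-2 and 7.95, 7.80 and 7.71 in untreated Col-0. It was higher by 0.50 ± 0.10 than in myb72-2 (limma adjusted p = 0.00227) and by 0.55 ± 0.10 than in Col-0 (limma adjusted p = 0.000838). These 4 calls held without each array in turn.

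CYP71B6 was higher too without bacteria, with no overlap between the arrays of oxMYB72 and those of the other genotypes. It averaged 9.94 ± 0.07 in oxMYB72, against 9.38 ± 0.22 in myb72-2 and 9.18 ± 0.10 in Col-0. It was higher by 0.76 ± 0.15 than in Col-0 (1.69-fold, limma adjusted p = 0.00179). The excess over myb72-2 was 0.56 ± 0.15 (limma adjusted p = 0.0231), and that call was lost without control replicate 3 of myb72-2 or control replicate 2 or 3 of oxMYB72.

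CYP71B26 and CYP71B34 were lower in untreated oxMYB72. CYP71B26 averaged 7.96 ± 0.18 in oxMYB72, against 9.05 ± 0.10 in myb72-2 and 9.04 ± 0.12 in Col-0. It was lower by -1.10 ± 0.12 than in myb72-2 (limma adjusted p = 1.21e-06) and by -1.09 ± 0.12 than in Col-0 (limma adjusted p = 1.3e-06). Its mean in untreated oxMYB72 thus stood beside 7.96 ± 0.08 in colonized Col-0, a pair that was not tested. CYP71B34 had 5.27, 5.73 and 5.52 in untreated oxMYB72, against 6.43, 6.39 and 6.60 in untreated myb72-2 and 6.23, 6.43 and 6.30 in untreated Col-0. It was lower by -0.97 ± 0.14 (limma adjusted p = 0.000107) and -0.81 ± 0.14 (limma adjusted p = 0.000701). Of the 5 green tissue markers, 2 were called lower in untreated oxMYB72 than in myb72-2 and 3 lower than in Col-0. Of all probe sets 3.27% and 3.58% were called lower in these comparisons. LHCB4.3 was higher in untreated oxMYB72, by 0.21 ± 0.17 and 0.29 ± 0.17, neither of them called. The part of green tissue in these differences was not tested. CYP71B37, near CYP71B34 in the run, had 7.93, 8.04 and 7.95 in untreated oxMYB72, against 8.38, 8.36 and 8.30 in myb72-2 and 8.28, 8.58 and 8.25 in Col-0. Its differences of -0.38 ± 0.14 and -0.40 ± 0.14 were not called (limma adjusted p = 0.149 and 0.112), although the groups did not overlap, and were called with only the 6 arrays of each comparison (limma adjusted p = 0.017 and 0.0267).

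**Figure D4:**
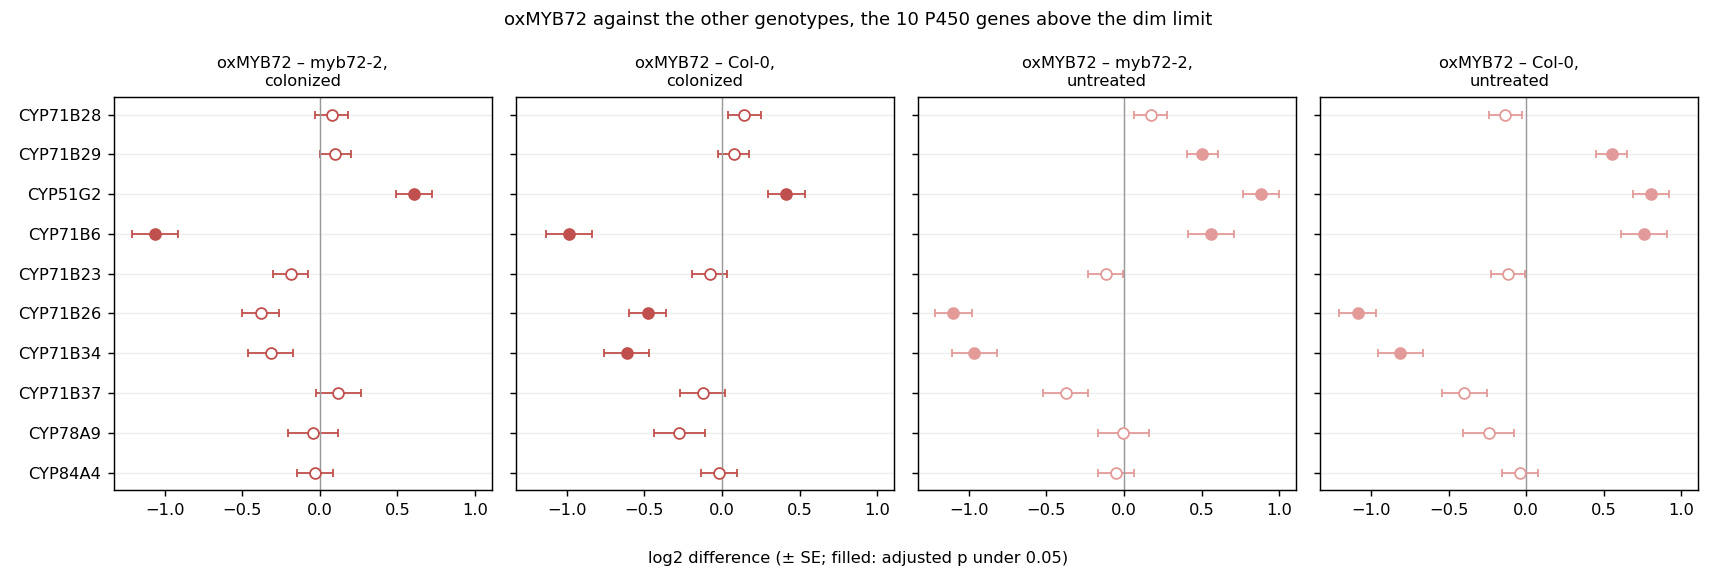
Log2 difference (x axis, ± SE) of oxMYB72 minus myb72-2 and oxMYB72 minus Col-0 in colonized and untreated roots for the 10 P450 genes above the dim limit (y axis). Filled points have a limma adjusted p under 0.05. CYP71B6 lies at -1.06 and -0.99 in colonized roots and at 0.56 and 0.76 in untreated roots.

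With WCS417 the order of the genotypes in CYP71B6 was the other way round. It averaged 9.56 ± 0.19 in colonized oxMYB72, against 10.62 ± 0.35 in colonized myb72-2 and 10.54 ± 0.16 in colonized Col-0, with no overlap. It was lower by -1.06 ± 0.15 than in myb72-2 (limma adjusted p = 4.55e-05) and by -0.99 ± 0.15 than in Col-0 (limma adjusted p = 0.000156), and both calls held without each array in turn. In colonized roots 1 member was higher and 1 lower in oxMYB72 than in myb72-2 (9.52% of 21, against 5.52% of all probe sets, 2.86% higher and 2.66% lower), and 4 were called without myb72-2 WCS417 replicate 3. The higher one was CYP51G2, with 5.96, 5.96 and 5.62 in oxMYB72 and 5.30, 5.36 and 5.04 in myb72-2, a difference of 0.61 ± 0.12 (limma adjusted p = 0.00183). Fitted to these 6 arrays alone, limma did not call it (adjusted p = 0.0532). CYP71B26 differed by -0.38 ± 0.12 between these groups and was not called (limma adjusted p = 0.0645). It was called under repeated quantile normalization, robust moderation with a trend, removal of dim probe sets, or without replicate 3 of either colonized group (limma adjusted p between 0.0274 and 0.0496).

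Against colonized Col-0, 1 member was higher and 3 lower in oxMYB72 (19% of 21, against 4.26% of all probe sets, 2.02% higher and 2.24% lower). Of these 4 calls, that of CYP71B6 held without each array in turn and the other 3 did not. CYP51G2 was higher by 0.42 ± 0.12 (limma adjusted p = 0.0466) and CYP71B26 lower by -0.48 ± 0.12 (limma adjusted p = 0.0186). Both calls were lost without Col-0 WCS417 replicates 2 or 3 or oxMYB72 WCS417 replicates 1 or 2, and with limma fitted to the 6 colonized arrays of oxMYB72 and Col-0 alone. That of CYP51G2 was also lost under robust moderation with a trend. CYP71B34 had 5.72, 5.33 and 5.80 in colonized oxMYB72, against 6.22, 6.22 and 6.26 in colonized Col-0. It was lower by -0.61 ± 0.14 (limma adjusted p = 0.0136), a call lost without Col-0 WCS417 replicate 3 or oxMYB72 WCS417 replicate 2. The count of 4 became 1 without Col-0 WCS417 replicate 3 or oxMYB72 WCS417 replicate 2, and 2 without Col-0 WCS417 replicate 2 or oxMYB72 WCS417 replicate 1.

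The tests of the difference between responses called 2 members for oxMYB72 against myb72-2 (9.52% of 21, against 2.78% of all probe sets, 0.928% higher and 1.86% lower). They called 1 for oxMYB72 against Col-0 (4.76%, against 1.75% of all probe sets, 0.347% higher and 1.4% lower). CYP71B6 was called lower in both, and CYP71B26 higher against myb72-2. The count against myb72-2 was 1 without myb72-2 control replicate 1, oxMYB72 control replicate 1 or oxMYB72 WCS417 replicate 3. Without oxMYB72 WCS417 replicate 2 the count against Col-0 was 2. CYP71B34 came next against myb72-2, with a difference of responses of 0.65 ± 0.20 (limma adjusted p = 0.115). It was called without myb72-2 WCS417 replicate 3 (limma adjusted p = 0.0397) or oxMYB72 WCS417 replicate 2 (limma adjusted p = 0.0431).

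Few other genes of the pathways around these enzymes had a named single-gene probe set. Of the 23 other genes listed for tryptophan-derived compounds only UGT74B1, a glucosyltransferase of glucosinolate synthesis, was measured. With WCS417 its differences were 0.28 ± 0.11 in oxMYB72 and 0.21 ± 0.11 in myb72-2, neither of them called (limma adjusted p = 0.0895 and 0.207). It averaged 9.42 ± 0.05 in colonized Col-0 and 8.95 ± 0.18 in untreated Col-0, and rose by 0.46 ± 0.11 (limma adjusted p = 0.00648). None of the 3 tests of the difference between its responses was called by limma. Of 21 phenylpropanoid genes HCT and DFR were measured. HCT, a shikimate hydroxycinnamoyl transferase of lignin synthesis, averaged 13.12 ± 0.15 in untreated oxMYB72, against 10.78 ± 0.12 in untreated myb72-2 and 10.65 ± 0.19 in untreated Col-0. With WCS417 HCT differed by -0.45 ± 0.11 in oxMYB72 (limma adjusted p = 0.00636) and by 0.44 ± 0.11 in Col-0 (limma adjusted p = 0.009). In myb72-2 the difference was 0.19 ± 0.11 and was not called (limma adjusted p = 0.254). The WCS417 response of HCT in oxMYB72 was lower than that in Col-0 by -0.89 ± 0.16 (limma adjusted p = 0.00196) and than that in myb72-2 by -0.64 ± 0.16 (limma adjusted p = 0.0276). DFR of anthocyanin synthesis and BRL1, a brassinosteroid receptor and the only 1 of 12 brassinosteroid genes measured, were called in no comparison. DFR was dim, with group means of 3.31 to 3.61, so a change in it may not have been detectable. None of the genes listed for suberin, abscisic acid and gibberellin, jasmonate or P450 electron donors was measured by a named single-gene probe set.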

How the data were processed

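The deposited data are log2 expression values from RMA, made by the authors per the submitters' processing notes, which name no RMA version in the sources used here; that the scale is log2 follows from RMA and from the range of values. RMA forces a common distribution on the arrays, which hides any shift common to the whole transcriptome. The number of arrays limits the precision. Groups came from the sample titles. Of 22810 probe sets, 64 control sets were left out. The array annotation named the genes, and a RefSeq table (TAIR10.1) gave current symbols and gene order. Its symbol CHI names a chitinase and was not counted as phenylpropanoid.

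limma 3.58.1 (R 4.3.3) fitted a mean per group over all 18 arrays, with eBayes, for 12 two-sided comparisons. The code was tested on simulated data with independent noise on each array. Such data cannot check for batches shared between the real arrays. Plots used matplotlib 3.10.9 (Python 3.11.15). No sequences were used here.

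The members and lists were chosen with earlier results of these data known. The naming rule took called members whose groups did not overlap and whose call held without each array in turn, called members of the differences of responses, and members with a listed role. Counts were small, so the other called members, and members near them on the chromosome or close to a call, are named too, chosen after their values were seen. Alternatives were repeated quantile normalization, centring on the median, robust moderation with a trend, fits to the arrays of 1 comparison, leaving out the dimmest 30% of probe sets, the replicate number as a block, and removal of single arrays.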

Additional observations from a re-analysis of the deposited data

Results flagged for a closer look

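The test of the difference between WCS417 responses picked out 2 P450 genes. CYP71B6 responded less in oxMYB72 than in Col-0, by -1.74 ± 0.21, and less than in myb72-2, by -1.62 ± 0.21 (limma adjusted p = 1.64e-05 and 3.7e-05). Over the alternatives the adjusted p lay between 1.21e-06 and 0.000114 against Col-0 and between 1.42e-06 and 0.000428 against myb72-2. All 3 colonized oxMYB72 arrays lay below all 3 untreated ones in CYP71B6, whereas all 3 colonized arrays lay above the untreated ones in both other genotypes. CYP71B26 had a response in oxMYB72 above that in myb72-2 by 0.72 ± 0.17 (limma adjusted p = 0.018, between 0.00791 and 0.0623 over the alternatives), its fall being smaller. The green tissue markers LHCB4.1, LHCB4.2, RCA and NdhS had smaller falls in oxMYB72 than in myb72-2 too, by 0.64, 0.45, 0.45 and 0.27. LHCB4.3 went the other way, by -0.34, and limma called none of these 5 differences. For oxMYB72 minus Col-0 limma called 1 of the 5 markers, NdhS, at 0.82 ± 0.19 (limma adjusted p = 0.0286). The relation of these markers to CYP71B26 was not tested.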

How the results depend on the processing

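Of 32 calls in the 7 genes, 22 held without each array in turn. All 32 kept their call and direction under quantile normalization again, median centring, removal of the dimmest 30% of probe sets and the replicate block, and none of the 32 changed sign under any alternative run. Small differences without a call did change sign when an array was left out, such as CYP71B29 with WCS417 in Col-0 (-0.09 to 0.03). With a trend and robust moderation 1 call was lost, and with only the arrays compared 4 were lost. With only the arrays compared, 1 member was called for oxMYB72 against myb72-2 and 2 for oxMYB72 against Col-0 in colonized roots, and with a trend and robust moderation 2 for the response of oxMYB72 minus that of Col-0; the cause was not tested. With each array left out, called members numbered 2 to 3 for WCS417 in oxMYB72, 3 to 7 in myb72-2 and 4 in Col-0. In colonized roots they numbered 2 to 4 for oxMYB72 against myb72-2 and 1 to 4 against Col-0. For differences of responses they numbered 1 to 3 for oxMYB72 minus myb72-2 and 1 to 2 for oxMYB72 minus Col-0. For same-numbered replicates of different groups, the correlation of deviations over 45 pairs ran from -0.304 to 0.257 and was above 0.1 in 12. With 3 arrays per group these values cannot tell whether a replicate number marks a shared batch. With the replicate block the counts were as without it: 3 in oxMYB72, 6 in myb72-2 and 4 in Col-0 for WCS417. Averaging probe sets of a gene could give no other value, since each member has 1. The 11 dim members lie where RMA compresses differences.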
